A study of Mus musculus with 12 samples.

Results

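The genes described here are the matrix metalloproteinases (MMPs), the ADAMTS proteases and the tissue inhibitors of metalloproteinases (TIMPs) of mouse pancreatic ductal adenocarcinoma cells. Membership was set by symbol: every gene named Mmp, Adamts or Timp followed by its number, which gave 42 of the 20432 genes in the deposited table, namely 21 MMPs, 17 ADAMTS proteases and 4 TIMPs. RNA of 6 cell lines, named 52205, 52419, 52424, 53105, 53369 and 53371, was sequenced once from the parental culture, labelled wild type, and once from the same line labelled JAK1 knockout. For the second culture, cells of the line had received Cre recombinase by pBabe retrovirus and were selected in 2, 4 and then 7 µg/ml puromycin. Vector-only controls are not analysed here. Infection, drug selection and time in culture therefore cannot be told apart from loss of JAK1. The sources used here do not say whether a Cre culture is 1 clone, which exons Cre removes or what drives the tumours.

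MMPs are zinc-dependent enzymes that cut collagens, laminins, fibronectin and other proteins outside the cell. Most are secreted as inactive proenzymes, and the membrane-type members sit on the cell surface, where MMP14 activates MMP2. ADAMTS proteases are secreted relatives that trim proteoglycans such as versican and process procollagen, and TIMPs block the active sites of MMPs and, in the case of TIMP3, of several ADAMTS proteases. In pancreatic cancer these genes are known from invasion and from the dense stroma. Several MMP genes are classical targets of AP-1, a dimer of Jun and Fos proteins, and Timp1 is induced by interleukin-6 family cytokines, which signal through JAK1.

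The promoters of 3 neighbouring genes are shown first because these genes, which lie in 1 cluster on chromosome 9, were lower in Cre libraries of most lines. The sequences are the 200 bases before the annotated RefSeq start on the plus strand of GRCm38.p6, written 5′ to 3′, and capitals mark the AP-1 motif TGAGTCA or its reverse complement. The windows are chr9:7502142-7502341 for Mmp10, chr9:7445622-7445821 for Mmp3 and chr9:7272314-7272513 for Mmp13.
Mmp10: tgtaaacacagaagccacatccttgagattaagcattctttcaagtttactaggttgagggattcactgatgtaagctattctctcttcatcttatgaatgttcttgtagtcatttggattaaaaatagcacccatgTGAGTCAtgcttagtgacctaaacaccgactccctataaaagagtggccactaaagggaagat
Mmp3: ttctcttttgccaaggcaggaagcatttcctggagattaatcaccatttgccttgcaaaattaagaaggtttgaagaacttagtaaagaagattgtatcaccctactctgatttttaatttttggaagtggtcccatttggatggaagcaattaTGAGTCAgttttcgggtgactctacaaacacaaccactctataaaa
Mmp13: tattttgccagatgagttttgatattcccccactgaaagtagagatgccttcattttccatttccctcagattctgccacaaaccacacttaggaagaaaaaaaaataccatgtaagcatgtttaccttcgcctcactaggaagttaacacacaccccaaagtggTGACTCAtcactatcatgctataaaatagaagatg

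Counting the base before the start as -1, the motif begins at -63 in Mmp10, at -46 in Mmp3 and at -35 in Mmp13. Over windows of 250 bases before to 50 after the start, searched on both strands, TGAGTCA occurred in 7 of the 29 members with a RefSeq window. All 7 lie in the chromosome 9 cluster, where 8 members had a window, and 0 of the 21 members elsewhere held it. Among all 27025 genes with a window 5.95% held the motif. The STAT motif TTCNNNGAA was found in the window of 1 member, Mmp23, and in 9.55% of all genes. A match is a run of letters, and binding was not measured.

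The 12 libraries held 11.5 to 18.0 M reads in genes (M, 1e+06 reads), and 1 read was worth 0.0569 to 0.0896 counts per 1e+06 reads (CPM). Jak1, the targeted gene, was at 170 ± 26.7 CPM in parental and 168 ± 44.2 CPM in Cre libraries (SD, n = 6 each), which does not check the deletion because a shortened transcript still gives reads. The parental library of 53371 stood apart in the proliferation marker Mki67, at 25.8 CPM against 104 to 381 CPM in the other parental libraries and 248.6 CPM in its own Cre library. The ductal markers Krt8, Krt18 and Krt19 with 6 others summed to between 444 and 12882 CPM in parental libraries. Cdh1, which encodes E-cadherin, was at 0.372 CPM in parental 52419 and 17.5 CPM in parental 53369, against 272 to 805 CPM in the other parental libraries, so these 2 lines lack or nearly lack a defining epithelial marker. Epcam, another, was at 0.818 and 0.612 CPM there and at 1.99 CPM in parental 53105. In the other parental libraries Epcam was at 69.2 to 366 CPM. Keratins set the 2 lines low in Cdh1 apart. Krt8, Krt18 and Krt19 were at 776, 573 and 278 CPM in parental 53369. In parental 52419 they were at 0.818, 253 and 15.5 CPM. Krt7 was low in both, at 1.38 CPM in parental 53369 and 1.49 CPM in parental 52419. Vim, the mesenchymal filament vimentin, was at 492 CPM in parental 52424 and at 1561 to 3238 CPM in the other parental libraries, and Zeb1, a repressor of epithelial genes, ranged from 24.3 to 94.9 CPM. Among leukocyte markers 5 of 9 measured reached 1 CPM in any library, with Ptprc at 1.02 CPM at most, and their sum was 2.50 to 31.3 CPM in parental and 1.84 to 11.0 CPM in Cre libraries. Among endothelial markers 2 of 5 did, with Cdh5 under 1 CPM throughout, and their sum was 0.612 to 6.85 and 0.627 to 5.32 CPM.

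Which of these genes the cultures transcribe was read from the levels. In at least 1 library 28 of the 42 members reached 1 CPM, 14 did so in all 12 libraries, and 14 never did. Per kilobase of annotated exon (GENCODE M21), the scale used wherever genes are compared, the inhibitors came first. Timp2 had a mean of 202 CPM per kb over the 12 libraries, Timp1 of 77.7, the membrane-type collagenase Mmp14 of 43.2, Timp3 of 31.3 and the gelatinase Mmp2 of 15.7. No other member had a mean above that of the collagenase Mmp13, at 7.65 CPM per kb. Of the ADAMTS proteases, Adamts1 had the highest mean, at 6.06 CPM per kb.

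**Figure D1:**
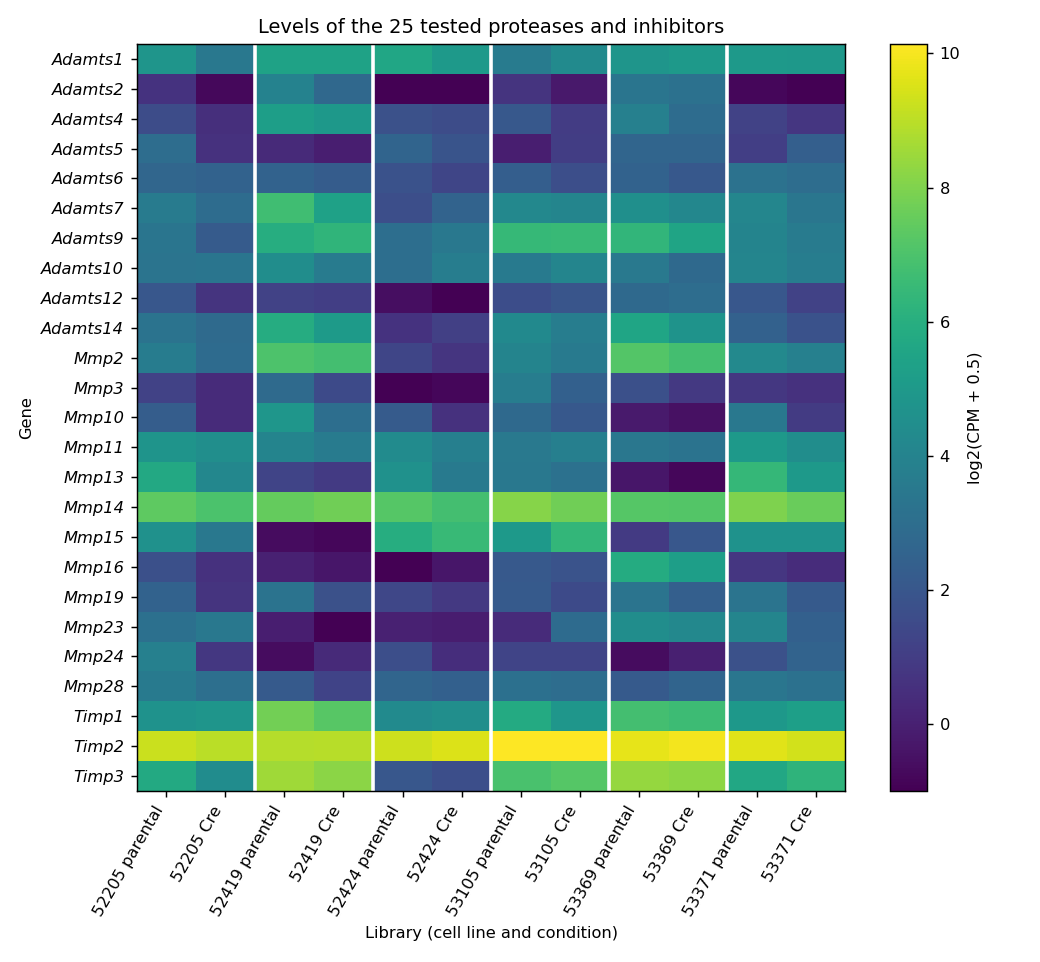
Levels of the 25 members that passed the filter on low values, in rows, across the 12 libraries, in columns with the parental and Cre library of each line side by side. Colour gives log2(CPM + 0.5) and is not corrected for gene length. Timp2 and Mmp14 are high in every column, while rows such as Mmp2, Timp3, Mmp13 and Mmp15 differ between lines more than between the 2 columns of a line.

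The repertoire differed between lines. In the fit of line and Cre together, 22 of the 25 tested members differed between lines by limma's F test (adjusted p under 0.05), where 71.1% of all genes tested did, so the share of members is not far from the background. Adamts5, Adamts10 and Mmp24 did not pass, with Benjamini-Hochberg adjusted p of 0.0566, 0.186 and 0.0596.

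Mmp2, a gelatinase that stromal cells usually make, was at 143 CPM in parental 53369 and 129 CPM in parental 52419, and at 1.98 to 18.7 CPM in the other parental libraries (limma line test, adjusted p = 1.32e-07). Timp3, the inhibitor that binds to the matrix, was at 373 CPM in parental 52419, 331 CPM in parental 53369 and 122 CPM in parental 53105, against 3.62 CPM in parental 52424. Timp1, a secreted inhibitor induced by many cytokines, was at 218 CPM in parental 52419 and 113 CPM in parental 53369, and at 19.5 to 55.3 CPM in the others. Adamts4, an aggrecanase, Adamts14, which removes the amino-terminal propeptide of procollagen, and Adamts2, with the same task, also had their 2 highest parental levels in these lines. For Adamts4 these were 37.1 and 14.1 CPM, for Adamts14 59.0 and 46.3 CPM, and for Adamts2 15.01 and 9.56 CPM. The 2 lines are those low in Cdh1, and whether the low Cdh1 has a part in these levels was not tested.

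Other members had the opposite order. Mmp13 was at 85.8 CPM in parental 53371, 52.6 CPM in 52205, 24.2 CPM in 52424 and 10.5 CPM in 53105, and at 1.93 and 0.306 CPM in parental 52419 and 53369. Mmp15, a membrane-type MMP of epithelia, was at 24.3 to 61.7 CPM in those first 4 lines and at 0.149 and 1.38 CPM in parental 52419 and 53369. Mmp16, another membrane-type MMP, stood out in 1 line, with 57.4 CPM in parental 53369 and 3.87 CPM at most in the other parental libraries. Mmp14 and Timp2 had narrow ranges over the parental libraries beside these, Mmp14 from 146 to 280 CPM and Timp2 from 477 to 1100 CPM.

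Each Cre library was set against the parental library of its line. The difference takes in loss of JAK1 together with infection, drug selection and time in culture. Estimates for the proteases were mostly lower after Cre, largest for Mmp10, Mmp19 and Mmp13, while that of the most abundant inhibitor, Timp2, lay close to 0. The family was taken up with earlier results of these data known, so the counts describe it. Of the 25 tested members 23 had a fitted change below 0, against 50.1% of all genes tested. None passed an adjusted p under 0.05 by limma with Benjamini-Hochberg adjustment, where 0.0236% of genes did. EdgeR called 0 lower and 0 higher, with a background of 0.0393% lower and 0% higher. At an unadjusted p under 0.05, 11 were lower and 0 higher, against a background of 8.18% lower and 6.96% higher. DESeq2, run on the recovered reads, called 4 members lower, Mmp10, Mmp13, Mmp19 and Mmp2, where it called 1.63% of all genes lower, and it called 0 members higher (0.487% of genes). In all 6 pairs 6 members were lower, against 4.56% of genes, and 0 were higher (4.11%). The median log2 change was -0.31 over the tested members and -0.00 over all genes tested. In bulk RNA, fewer cells that express a gene and less RNA per cell cannot be told apart. In none of the 42 members, 25 of them tested, did the parental and Cre levels separate without overlap. Among all genes tested, 0.055% had every Cre level below every parental level and 0.0393% had every Cre level above. The changes are given within lines, as the fit takes them.

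**Figure D2:**
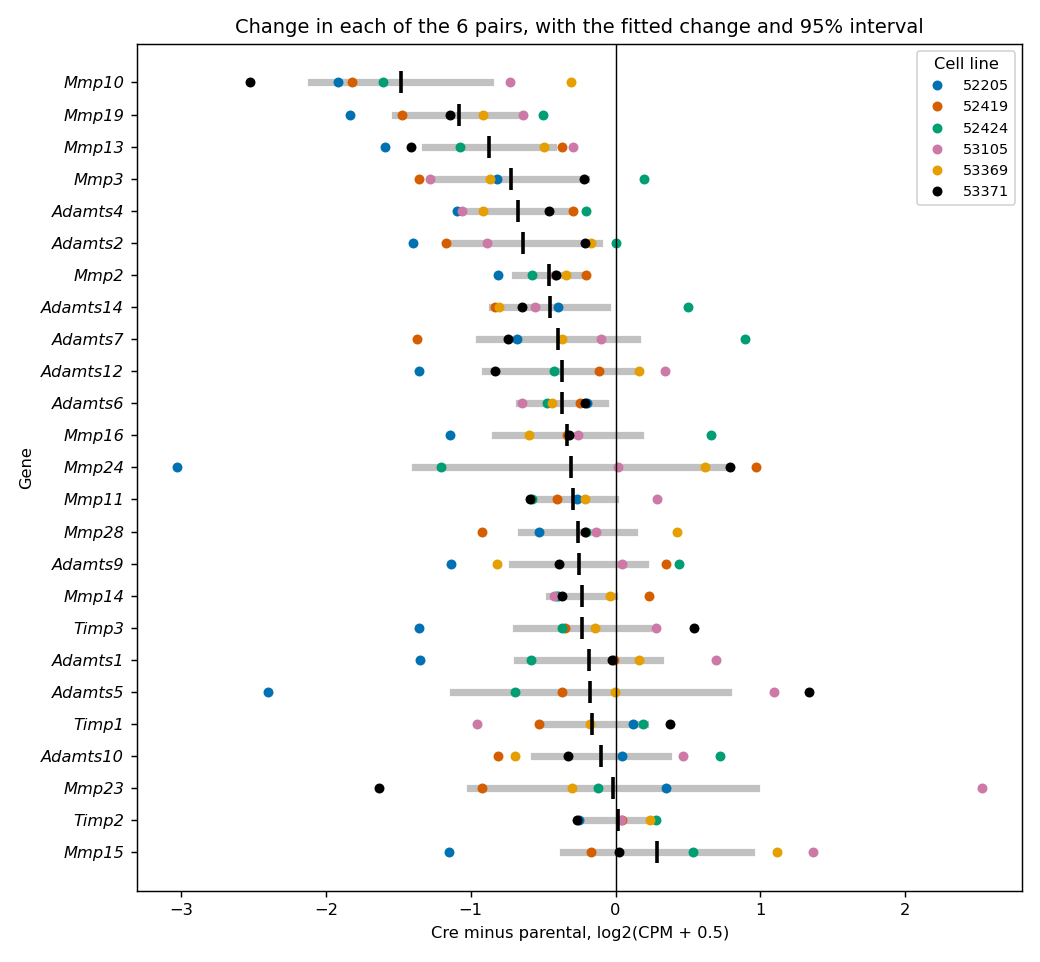
Cre minus parental difference in log2(CPM + 0.5) for the 25 tested members, in order of the fitted change. Dots are the 6 lines, black ticks the limma estimate and grey bars its 95% confidence interval. The ticks run from -1.48 for Mmp10 to 0.29 for Mmp15, and 23 of 25 lie below 0.

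The 3 genes named as stromelysins, Mmp10, Mmp3 and Mmp11, were all lower at an unadjusted p under 0.05, where 8.18% of all genes tested were. The enzymes of Mmp10 and Mmp3 cut proteoglycans, laminin and fibronectin and activate other MMPs. Mmp10, stromelysin 2 (chromosome 9, 7502342 to 7510242, GRCm38), went from 28.1 to 7.61 CPM in 52419, from 10.6 to 1.44 in 53371, from 6.54 to 3.74 in 53105, from 4.43 to 0.807 in 52205, from 4.13 to 1.02 in 52424 and from 0.382 to 0.214 in 53369. It was lower in 6 of 6 lines, although in 53369 the level rests on 5 and 3 reads. The fitted log2 change was -1.48 (SE 0.28), 2.80-fold lower on the log2(CPM + 0.5) scale, with limma adjusted p = 0.137, edgeR adjusted p = 0.106 and DESeq2 adjusted p = 1.51e-05. Without pair 53371, whose parental library was low in Mki67, the change was -1.28.

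Mmp3, stromelysin 1 (chromosome 9, 7445822 to 7455975), was lower in 5 of 6 pairs. Its parental levels had a lowest value of 0 CPM, a median of 2.28 and a highest of 12.5, and its Cre levels were 0.0727, 1.15 and 4.87 CPM. The exception was 52424, where it had 0 reads in the parental and 1 read in the Cre library. The log2 change was -0.72 (SE 0.23, limma adjusted p = 0.257). Mmp11, stromelysin 3, which lies apart on chromosome 10, was at 19.5 ± 8.90 CPM in parental and 15.2 ± 5.46 CPM in Cre libraries (SD, n = 6 each), a change of -0.29 (SE 0.13, limma adjusted p = 0.329). Line 53105 was the exception, at 0.28, and the other 5 pairs were lower.

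Mmp13, the main collagenase of the mouse (chromosome 9, 7272514 to 7283333), was lower in all 6 lines. It went from 85.8 to 31.9 CPM in 53371, from 52.6 to 17.1 in 52205, from 24.2 to 11.2 in 52424, from 10.5 to 8.42 in 53105, from 1.93 to 1.38 in 52419 and from 0.306 to 0.0714 in 53369. The lines with high parental levels carry the reads, 1089 against 377 in 53371 and 701 against 191 in 52205, while 53369 had 4 and 1. The log2 change was -0.87 (SE 0.20, limma adjusted p = 0.177, DESeq2 adjusted p = 0.000915). The other measured collagenases, Mmp1a and Mmp1b, had too few reads for a test. These were 15 and 10 over the parental libraries and 3 and 1 over the Cre libraries. Mmp8, also listed as a collagenase, was not among the genes measured.

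**Figure D3:**
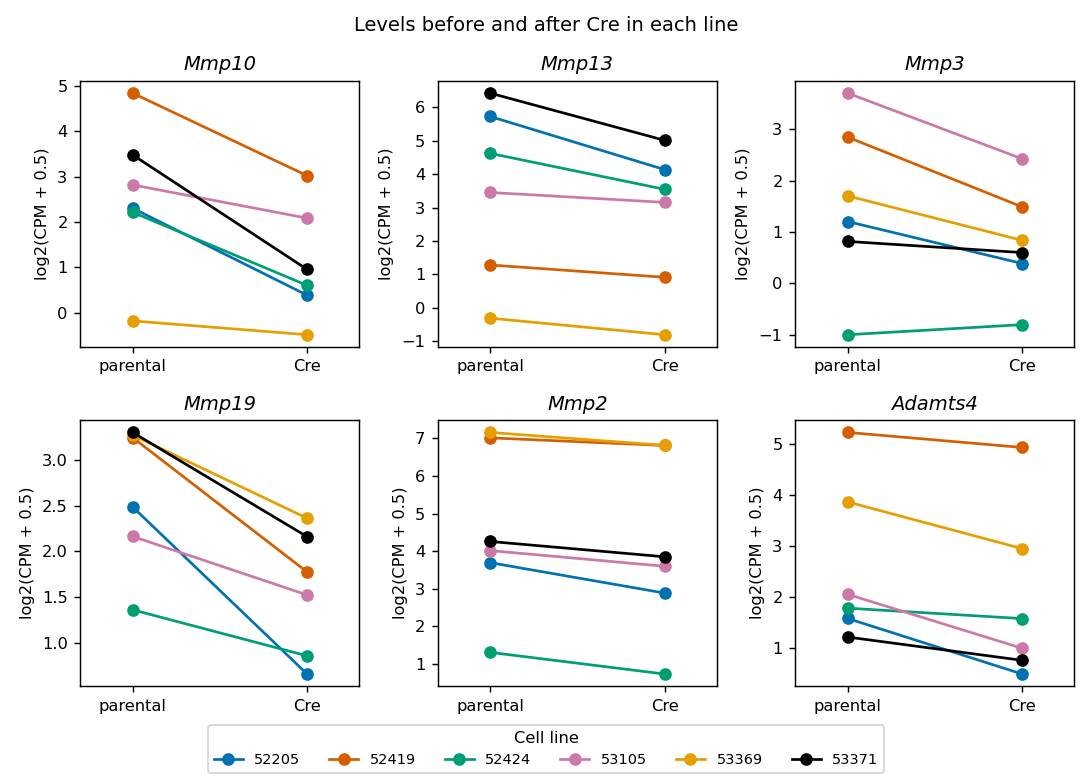
Levels of 6 members before and after Cre, as log2(CPM + 0.5), with 1 line per cell line; each panel has its own vertical scale. Mmp10, Mmp13, Mmp19, Mmp2 and Adamts4 are lower after Cre in all 6 lines and Mmp3 in 5, from parental levels that differ widely between lines.

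Mmp10, Mmp3 and Mmp13 belong to a cluster of MMP genes on chromosome 9 between 7272514 and 7699585, in which 8 members are annotated. The 5 other cluster members, Mmp1a, Mmp1b, Mmp7, Mmp12 and Mmp20, were not tested, since each stayed under 1 CPM in every library. Mmp7, matrilysin, which ductal tumours often express, had 20 reads over the parental and 3 over the Cre libraries. Nearby genes had smaller estimates. Of the 9 tested genes outside the cluster and within 1000 kb, fitted changes ran from -0.43 to 0.39. Dync2h1, a dynein chain of cilia, was at -0.43 and Birc3, an inhibitor of apoptosis induced by NF-kB, at -0.32, both at an unadjusted p under 0.05 (limma adjusted p = 0.206 and 0.257). Closest to the cluster, Dcun1d5 was at 0.15 and Tmem123 at 0.05. The cluster was singled out after its values were seen, and the difference between it and its neighbours was not tested.

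**Figure D4:**
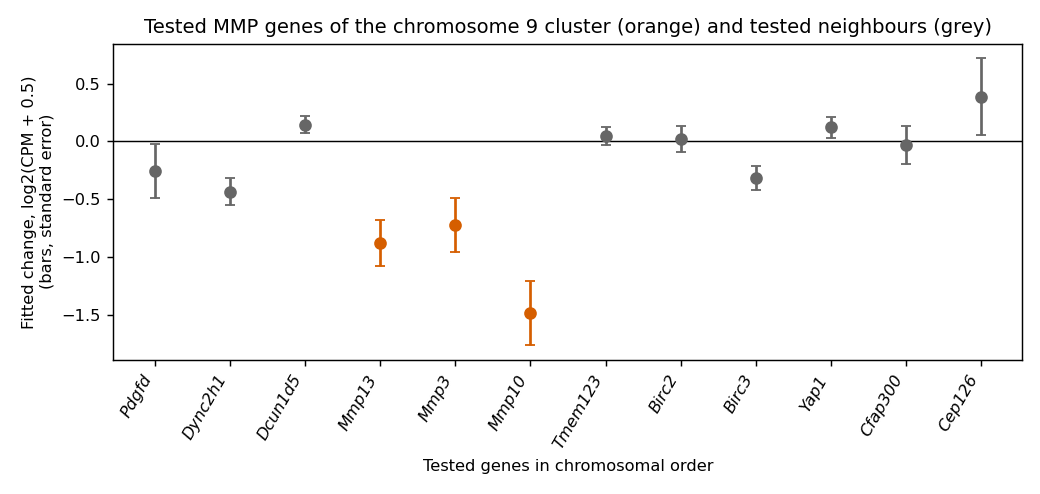
Fitted Cre minus parental change (log2(CPM + 0.5), bars are the standard error) of the tested genes of the chromosome 9 MMP cluster, in orange, and of tested genes within 1000 kb, in grey, in chromosomal order and not to scale. Mmp13, Mmp3 and Mmp10 lie at -0.87, -0.72 and -1.48, below all 9 neighbours.

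Mmp19, a secreted MMP outside these classes (chromosome 10, 128790910 to 128800827), had the lowest limma p of the members, while Mmp10 had the lowest by edgeR and by DESeq2. It went from 9.37 to 3.97 CPM in 53371, from 9.18 to 4.64 in 53369, from 8.99 to 2.92 in 52419, from 5.11 to 1.08 in 52205, from 3.98 to 2.37 in 53105 and from 2.07 to 1.31 in 52424. All 6 lines were lower, with log2 differences from -1.83 in 52205 to -0.50 in 52424. The fitted change was -1.08 (SE 0.20), 2.12-fold lower, with limma adjusted p = 0.137 and DESeq2 adjusted p = 0.00180. With library weights limma called it (adjusted p = 0.0444). Exons of Tmem198b on the opposite strand cover 22.3% of its exon bases, and the library protocol names no strand-marking step, so reads of the pair cannot be told apart there. Tmem198b itself had a change of -0.14. Smaller shares of the exons of Mmp24 (13.6%), Mmp28 (12.03%), Mmp11 (5.58%) and Adamts4 (3.56%) are also covered by genes on the opposite strand, so their levels carry the same uncertainty.

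Of the gelatinases, which cut denatured and basement membrane collagen, Mmp2 (chromosome 8, 92827290 to 92853421) was lower by a small and even amount. Its parental and Cre levels in CPM were 12.5 and 6.90 in 52205, 129 and 112 in 52419, 1.98 and 1.16 in 52424, 15.7 and 11.6 in 53105, 143 and 112 in 53369 and 18.7 and 14.0 in 53371. Each line was lower, by -0.81 in 52205 to -0.20 in 52419, and the fitted change was -0.46 (SE 0.10, limma adjusted p = 0.177, DESeq2 adjusted p = 0.0443). Mmp9, the second gelatinase, was under the filter, with 103 reads over the parental and 43 over the Cre libraries, of which 60 and 28 were in 52419.

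The membrane-type MMPs were mixed. Mmp14, the MMP with the highest level per kb in all lines but 53369, was at 196 ± 56.7 CPM in parental and 166 ± 44.9 CPM in Cre libraries (SD, n = 6 each). Its parental and Cre levels in CPM were 166 and 127 in 52205, 182 and 214 in 52419, 147 and 110.4 in 52424, 280.0 and 208 in 53105, 146 and 143 in 53369 and 252 and 195 in 53371. All pairs but 52419 (0.23) were lower, with a log2 change of -0.23 (SE 0.10, limma adjusted p = 0.320). Mmp15 was the only MMP with an estimate above 0 (0.29, SE 0.29, limma adjusted p = 0.658). The CPM values of Mmp15 before and after Cre were 24.3 and 10.7 in 52205, 0.149 and 0.0768 in 52419, 61.7 and 89.8 in 52424, 31.4 and 81.6 in 53105, 1.38 and 3.57 in 53369 and 24.97 and 25.4 in 53371. It was higher in 4 lines and lower in 52205 and 52419, and without pair 52205 the fitted change was 0.58. For Mmp16 the parental and Cre levels in CPM were 2.78 and 0.986 in 52205, 0.520 and 0.307 in 52419, 0.00 and 0.291 in 52424, 3.87 and 3.14 in 53105, 57.4 and 37.7 in 53369 and 1.18 and 0.845 in 53371. It was lower in 5 lines, mostly at low levels outside 53369, and neither Mmp16 (-0.33, or -0.17 without pair 52205 and -0.53 without 52424) nor Mmp24 (-0.31) passed. Mmp24 was lower in 52205 by 3.03 on the log2 scale, from 13.8 to 1.26 CPM, and also lower in 52424 (-1.21, from 2.67 to 0.873 CPM). It was higher in 4 lines, of which 53105 was at 0.01. Reads were few in 52419 (2 and 10) and 53369 (2 and 7), and 53371 went from 2.91 to 5.41 CPM. Mmp17 and Mmp25, which are anchored by a lipid, stayed under 1 CPM. Of the remaining MMPs, Mmp21 had 3 reads in all, Mmp28 had a fitted change of -0.26, and Mmp23, at 0.796 CPM before and 7.00 CPM after Cre in 53105 but 16.3 and 4.90 CPM in 53371, had a fitted change of -0.02 (SE 0.44).

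Among the 10 tested ADAMTS proteases all estimates were below 0, against 50.1% of all genes tested, with a median of -0.37. At an unadjusted p under 0.05, 4 were lower, Adamts4, Adamts6, Adamts2 and Adamts14, where 8.18% of all genes tested were. EdgeR and DESeq2 called 0 of the 10, and the DESeq2 adjusted p of Adamts4 was 0.0553. Adamts4 was lower in 6 of 6 pairs, although in 52424 it had 34 reads in both libraries, so the sign there rests on library scaling. Its parental levels had a lowest value of 1.81, a median of 3.28 and a highest of 37.1 CPM, and its Cre levels were 0.896, 1.98 and 30.1 CPM. Its change was -0.67 (SE 0.17, limma adjusted p = 0.195). Adamts6, a protease that acts on microfibrils and cell-surface proteoglycans, was at 5.41 ± 1.84 CPM in parental and 4.21 ± 1.89 CPM in Cre libraries (SD, n = 6 each), lower in 6 of 6 pairs (-0.37, SE 0.13, limma adjusted p = 0.285).

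The procollagen processing enzymes Adamts2 and Adamts14 were each lower in 5 pairs. Adamts2 reached 1 CPM in 4 parental and 2 Cre libraries, just the 6 that the filter requires, so its test depended on its parental levels. Its lower level in 53371 rests on 1 read in the parental and 0 in the Cre library. In 52419 the level of Adamts2 was 15.01 CPM before and 6.38 CPM after Cre, in 53369 it was 9.56 and 8.43 CPM, and no other library exceeded 1.08 CPM (log2 change -0.64, SE 0.23, limma adjusted p = 0.288), with 0 reads in both libraries of 52424. Adamts14 had, before and after Cre, CPM levels of 9.01 and 6.72 in 52205, 59.0 and 32.9 in 52419, 1.03 and 1.67 in 52424, 18.8 and 12.6 in 53105, 46.3 and 26.3 in 53369 and 5.04 and 3.04 in 53371. Line 52424, where it was lowest, was the exception (log2 change -0.46, SE 0.18, limma adjusted p = 0.295). Adamts7 cuts cartilage oligomeric matrix protein and is linked to vascular disease. Its CPM values before and after Cre were 11.9 and 7.26 in 52205, 106 and 40.7 in 52419, 2.67 and 5.38 in 52424, 17.8 and 16.6 in 53105, 22.7 and 17.5 in 53369 and 17.01 and 9.97 in 53371. It was lower in 5 lines and higher in 52424, and its change was -0.40 (SE 0.24, limma adjusted p = 0.462), or -0.20 without pair 52419 and -0.65 without 52424.

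The versican-cleaving Adamts1, Adamts5 and Adamts9, the first and last of which are the most abundant of the family, differed between lines in the sign of their changes. Adamts9 was at 43.7 ± 36.8 CPM in parental and 40.1 ± 37.2 CPM in Cre libraries (SD, n = 6 each), higher in 3 pairs and lower in 3. In single lines Adamts9 had, before and after Cre, CPM values of 9.69 and 4.12 in 52205, 61.5 and 78.5 in 52419, 7.66 and 10.5 in 52424, 87.0 and 89.8 in 53105, 80.5 and 45.4 in 53369 and 15.9 and 12.002 in 53371. The ranges of both groups overlapped. In 52205 Adamts1 went from 27.8 to 10.6 CPM and Adamts5 from 7.36 to 0.986 CPM. In 53105 both went the other way, with log2 differences of 0.70 for Adamts1 and 1.10 for Adamts5. Without pair 52205 the fitted changes of Adamts1 and Adamts5 were 0.05 and 0.27 in place of -0.19 and -0.17. Adamts12 (-0.37) and Adamts10 (-0.10) did not pass. Adamts3, Adamts8, Adamts13, Adamts15, Adamts16, Adamts17 and Adamts20 were not tested, and Adamts15 reached the most of these, 5.96 CPM in Cre 52424.

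None of the 3 tested TIMPs passed at an unadjusted p under 0.05. Timp2, which also takes part in the activation of MMP2 by MMP14, was at 740 ± 222 CPM in parental and 756 ± 257 CPM in Cre libraries (SD, n = 6 each), a log2 change of 0.01 with a 95% confidence interval of -0.20 to 0.23 (limma adjusted p = 0.961). The parental and Cre levels of Timp2 were, in CPM, 602 and 506 in 52205, 477 and 493 in 52419, 618 and 751 in 52424, 1100 and 1129 in 53105, 836 and 985 in 53369 and 808 and 672 in 53371. It was higher in 4 lines and lower in 2, with 53105 highest and 52419 lowest both before and after Cre. Timp1 was at 76.7 ± 77.1 and 61.3 ± 52.5 CPM, lower in 3 pairs and higher in 3, with a change of -0.16 (interval -0.53 to 0.20, limma adjusted p = 0.657). By line, Timp1 stood before and after Cre at, in CPM, 25.3 and 27.5 in 52205, 218 and 151 in 52419, 19.5 and 22.4 in 52424, 55.3 and 28.2 in 53105, 113 and 99.5 in 53369 and 29.9 and 39.0 in 53371. The change was thus uneven, -0.96 in 53105 and 0.38 in 53371, and with 53105 left out the fitted value was -0.0028. Timp3 was at 156 ± 157 and 140 ± 131 CPM, a change of -0.23 (interval -0.69 to 0.23, limma adjusted p = 0.608), and without pair 52205 it was -0.01. Before and after Cre, Timp3 had CPM values of 53.8 and 20.7 in 52205, 373 and 293 in 52419, 3.62 and 2.69 in 52424, 122 and 149 in 53105, 331 and 301 in 53369 and 51.2 and 74.9 in 53371. It was lower in 4 lines and higher in 53105 and 53371. Exons of Syn3 on the opposite strand cover 21.3% of the exon bases of Timp3, and Syn3 was at 3.20 CPM at most. Timp4 had 4 reads in all. These intervals still allow a change in Timp1 or Timp3 of the size seen in Mmp2.

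Summed over all 21 members, MMP transcripts per kilobase were lower in 6 of 6 pairs, as a description with no test. The sum went from 143 to 87.3 CPM per kb in 53371, from 119 to 101 in 52419, from 119 to 99.1 in 53369, from 103 to 92.0 in 53105, from 98.4 to 62.2 in 52205 and from 71.8 to 57.3 in 52424. Mmp14 alone made up 36.4% to 64.8% of it in the 10 libraries where it ranked first, and Mmp2 ranked first in both libraries of 53369. The ADAMTS sum was lower in 5 pairs and higher in 53105, and the TIMP sum was lower in 4 and higher in 52424 and 53369. The TIMP sum was 1.84 to 3.79 times the MMP sum in parental libraries and 2.76 to 4.45 times in Cre libraries. This ratio was higher in 5 of 6 pairs and lower in 52419, from 3.79 to 3.60.

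**Figure D5:**
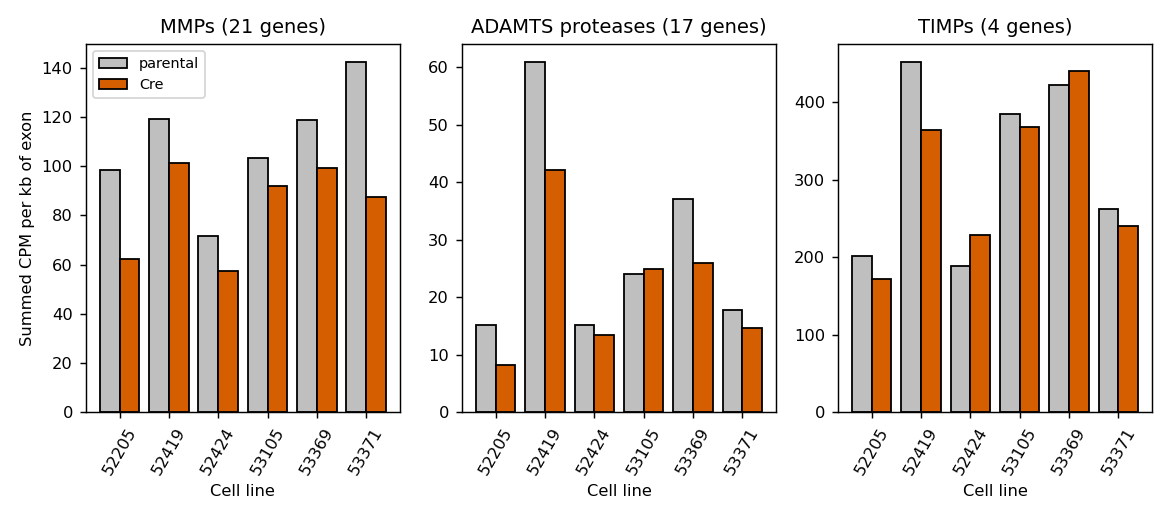
Summed level of the MMPs, ADAMTS proteases and TIMPs in each line, as CPM per kilobase of exon, with parental libraries in grey and Cre libraries in orange; each bar is 1 library and the panels have different scales. The MMP bars are lower after Cre in all 6 lines, the ADAMTS bars in 5 and the TIMP bars in 4.

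The lines differed in how much they changed. In 52205, 22 of the 25 tested members were lower and 13 were lower by 1 or more on the log2 scale, where 49.5% and 4.09% of all genes tested in that line were. The median change of the members there was -1.09, and the inhibitor Timp1 (0.12), Adamts10 (0.04) and Mmp23 (0.35) were the members not lower. Epithelial markers differed in the same pair. Epcam was at 79.3 CPM before and 11.1 CPM after Cre, Cldn4 at 128 and 14.6, Cldn7 at 48.3 and 6.63 and the ductal factor Sox9 at 55.9 and 17.9 CPM. Krt7 was at 1857 and 3845, Krt8 at 2401 and 3120, Krt18 at 2292 and 3256 and Krt19 at 1351 and 2262 CPM. Lower levels of Epcam (366 and 127 CPM), Cldn4 (408 and 136) and Cldn7 (226 and 71.6) were also seen in 52424. Sox9 was higher there, and the median change of the members was -0.21. In 53371 Epcam, Cldn4 and Cldn7 were higher after Cre. Their part in the protease levels was not tested. In the other lines the median ran from -0.37 in 52419 to -0.13 in 53105. In 53105 14 members were lower and 11 higher, where 50.9% of all genes tested were lower. In 53369 19 members were lower, where 48.5% of all genes tested were. There 0 members were lower by 1 or more, where 0.864% of all genes tested were. The 14 lower in 53105 and the 0 lower by 1 or more in 53369 are not far from their backgrounds. In 52419, 53371 and 52424, 21, 20 and 15 members were lower, where 47.3%, 52.9% and 49.7% of all genes tested were. As each line has 1 library per condition, whether the lines differ in their response was not tested.

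Genes that act with these proteases were taken as lists, with the same backgrounds of 8.18% lower and 6.96% higher at an unadjusted p under 0.05, and limma called 0 of their members over all genes. Of 15 measured matrix substrates 11 were tested, of which 3 were lower and 0 higher at that p. Fn1, fibronectin, was at 4265 ± 2145 CPM in parental and 3113 ± 2221 CPM in Cre libraries (SD, n = 6 each), lower in 6 of 6 pairs (-0.57, limma adjusted p = 0.177, DESeq2 adjusted p = 0.00109). Vcan, versican, the proteoglycan that several ADAMTS proteases cut, was also lower in 6 of 6 pairs (-0.58, limma adjusted p = 0.234). Spp1, the MMP substrate osteopontin, was at -0.61 and lower in 5 pairs (DESeq2 adjusted p = 0.0133).

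Of the 13 AP-1 and ETS factors, all tested, 4 were lower and 1 was higher at an unadjusted p under 0.05, with a median of -0.07. Jun was at 132 ± 75.1 CPM in parental and 110 ± 64.6 CPM in Cre libraries (SD, n = 6 each; -0.32, limma adjusted p = 0.258), and Junb was at -0.38 (limma adjusted p = 0.321), each lower in 5 of 6 pairs. Etv1, an ETS factor, was lower in 6 of 6 pairs (-0.57, limma adjusted p = 0.185), and Ets1 was higher in 6 of 6 (0.26, limma adjusted p = 0.248). EdgeR and DESeq2 called 0 of the 13. Whether these factors have a part in the lower MMP transcripts was not tested.

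In the plasminogen activator system, whose protease plasmin activates several proMMPs, 8 of 9 measured genes were tested, 1 was lower and 1 higher at an unadjusted p under 0.05. Serpine2, a protease inhibitor of that system, was lower in 6 of 6 pairs (-0.80, limma adjusted p = 0.295), most of all in 52205 (-2.68). In 52424 it had 6 reads in both libraries, so the sign there rests on library scaling. S100a10, which helps to hold plasminogen at the cell surface, was higher in 6 of 6 (0.34, limma adjusted p = 0.248). Of 12 tested other regulators of these proteases 1 was lower, Papln, a protein related to ADAMTS (-0.42). Of the 8 tested ADAM sheddases, which are membrane-anchored relatives, 0 were lower or higher, and edgeR and DESeq2 called 0.

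Markers of cell state and of fibroblasts were read beside the proteases. Of the 9 ductal markers 0 were lower at that p and 1 was higher, the keratin gene Krt19 (0.49, limma adjusted p = 0.195, DESeq2 adjusted p = 0.0236). Of the 8 mesenchymal-state markers, all tested, 3 were lower at that p and 0 higher. Their summed level was 621 to 3962 CPM in parental and 1029 to 4468 CPM in Cre libraries. Most of that sum was Vim, at 492 to 3238 CPM in parental and 857 to 3816 CPM in Cre libraries. Of the 8 markers 6 had estimates below 0 and 2 above, where 50.1% of all genes tested were below 0. Prrx1, a transcription factor of mesenchymal cells, was lower in 6 of 6 pairs (-0.44, limma adjusted p = 0.140, DESeq2 adjusted p = 0.00278), as was Snai1 (-0.40). Of the 9 measured fibroblast and stellate-cell markers 5 were tested. Pdgfra was lower in 6 of 6 pairs (-0.71, limma adjusted p = 0.0786, edgeR adjusted p = 0.0391, DESeq2 adjusted p = 1.68e-06) and Acta2 was higher in 5 (0.91, limma adjusted p = 0.301). The fibroblast list summed to 10.2 to 1351 CPM in parental and 10.3 to 733 CPM in Cre libraries, and 8 of its 9 measured genes reached 1 CPM in at least 1 library. Its summed level was highest in 53369 and next in 52419, the lines with high Mmp2, Timp3 and Adamts14. Parental 53369 had Col3a1, a fibrillar collagen, at 843 CPM, Col1a1 at 229.9 CPM, Pdgfra at 159.9 CPM and Pdgfrb at 106 CPM. Parental 52419 had 33.9, 22.2, 67.0 and 52.5 CPM of these genes, while Dcn and Fap reached at most 3.44 and 0.520 CPM in any library. The part of these markers in the protease levels was not tested.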

How the data were processed

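Poly(A)-selected RNA of 12 cultures was sequenced, per the labels' protocols. FastQC 0.11.9, featureCounts, edgeR and the builds GRCm38 and mm10 are named per the submitters' processing notes. An aligner is not given in the sources used here. Deposited by the authors were a linear signal per gene, a read count over a scaled library size per 1e+06 reads (CPM here), and a table of log2 values for 10903 genes. All signal values above 0 (100%) were whole multiples of 1 step per library within 0.01, so reads were recovered by division. Symbols came from RefSeq (19448 genes) and GENCODE (11), and 973 genes had none.

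The 12734 genes that reached 1 CPM in 6 or more libraries entered the test. Log2(CPM + 0.5) was fitted with limma-trend (limma 3.58.1, R 4.3.3), with Cre status and, as the block, cell line as terms, 2-sided, with Benjamini-Hochberg adjustment over all genes. The block follows from the isogenic pairs: deviations from group means correlated at 0.73 to 0.95 within pairs. With the best matching Cre library of another line, parental 52205 correlated at 0.66, close to the 0.73 of its own pair. For the other lines this value was -0.08 to 0.54. EdgeR 4.0.16 and DESeq2 1.42.0 on the recovered reads were alternatives. With 1 library per line and condition, p-values rest on the spread of the change between lines. All members are accounted for, with full statistics for those past an unadjusted p of 0.05 or changed alike in 6 pairs and for TIMPs, and values in every library for those at 50 CPM or more in any library or with a fitted change of 1 or more. Symbols set who is a member, but the family and the lists were chosen with earlier results of these data known.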

Additional observations from a re-analysis of the deposited data

Results flagged for a closer look

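For each tested member the 6 parental levels, the 6 Cre levels and the 6 changes were searched for a value far from the rest on the log2 scale, 75 sets in all, and 1 was found, where chance gives about 1 in 20. The change of Adamts14 in line 52424 was 0.50, against -0.83 to -0.40 in the other lines. It rests on low levels, 1.03 CPM in the parental and 1.67 CPM in the Cre library.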

How the results depend on the processing

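Under 17 alternatives, 408 values of single members were recomputed, of which 14 changed sign and 5 passed an adjusted p under 0.05. The count of 0 members called became 4 with DESeq2 and 1 (Mmp19) with library weights. The 11 members lower at an unadjusted p under 0.05 became 1 (Mmp19) with no replicate block, 7 of 18 with a mean of 5 CPM or more and 5 of 15 in the deposited log2 table, where the 22 members that differ between lines became 14; the last 2 tables hold fewer members. With a mean of 1 CPM or more, chosen after seeing the data, 10 of 26 were lower. The 0 higher members became 1 (Timp4, with 4 reads in all) with no filter. With each pair left out, 7 to 11 were lower (7 without 53105), 0 to 1 higher (Mmp15, without 52205), 0 called and 21 to 24 different between lines. These counts under alternatives have no share of all genes beside them and are not read against a background. The median ran from -0.41 to -0.21. Signs turned with pairs left out for Adamts1 (-0.36 to 0.047), Adamts5 (-0.48 to 0.27), Adamts10 (-0.27 to 0.041), Mmp23 (-0.52 to 0.31), Mmp24 (-0.56 to 0.24) and Timp2 (-0.039 to 0.071). Mmp23 also turned to 0.0060 with a pseudocount of 1 and 0.0045 with edgeR, and Mmp24 to 0.17 with library weights. Besides those given in the report, members that moved toward 0 by over 1.5 times with 1 pair left out were Adamts9 (-0.08), Adamts12 (-0.17) and Timp3 (-0.01) without 52205, Mmp28 (-0.13) without 52419 and Mmp15 (0.07) without 53105, and away from 0 Adamts9 (-0.39) without 52424, Mmp28 (-0.40) without 53369, and Timp1 (-0.27) and Timp3 (-0.39) without 53371. The causes were not tested. Depth limits the 17 untested members and Mmp10 and Mmp13 in 53369. Of the tested members 6 reached 1 CPM in more parental than Cre libraries, Mmp10, Adamts4, Mmp3, Adamts2, Mmp16 and Mmp24, and 1, Mmp23, in more Cre libraries. Adamts2 and Mmp16 each did so in 4 parental and 2 Cre libraries, just the 6 that the filter requires.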
